A study of Homo sapiens with 4 samples.

Results

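Collagen hydroxylases and lysyl oxidases were examined in BJ cells, a human line of foreskin fibroblasts, as 10 genes chosen by symbol among the 58870 genes listed in each library: P4HA1, P4HA2, PLOD1, PLOD2, PLOD3, LOX, LOXL1, LOXL2, LOXL3 and LOXL4. All 10 were found, each in a single row, and all 10 passed the filter on low counts. Cells were exposed for 24 hours either to Dox at 250 nM (the labels give the agent by this short name alone) or to DMSO, the solvent control. Both were then kept for 10 days, in which the design says the cells were left to senesce. The labels title the Dox samples as aged and the DMSO samples as young, and each group held 2 libraries of total RNA from this single line.

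Collagen chains are modified before they fold. In the endoplasmic reticulum, prolyl 4-hydroxylase, built of a catalytic alpha subunit (P4HA1 or P4HA2) and the beta subunit P4HB, hydroxylates proline, which makes the triple helix stable at body temperature. The lysyl hydroxylases PLOD1, PLOD2 and PLOD3 hydroxylate lysine, PLOD2 chiefly in the telopeptides at the chain ends. Outside the cell the copper enzymes LOX and LOXL1 to LOXL4 oxidise lysine and hydroxylysine, the first step of the crosslinks that join collagen fibrils and elastin. In dermal fibroblasts these enzymes together set how stiff and how soluble the matrix becomes.

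In Dox cells 6 of the 10 genes rose, 0 fell and 4 did not pass, by edgeR's quasi-likelihood test at a Benjamini-Hochberg adjusted p under 0.05. Over all 16749 tested genes, 16.5% were higher and 13.8% lower by that rule, 30.3% in either direction. LOXL4 (3.10-fold), PLOD2 (2.12-fold) and LOX (1.77-fold) rose most, followed by PLOD1 (1.52-fold), LOXL1 (1.44-fold) and LOXL2 (1.43-fold). The 10 genes had a median log2 fold change of 0.52, against -0.00 for all tested genes. Both Dox libraries lay above both DMSO libraries for each of the 10 genes, and for 34.6% of all tested genes, while 34.5% of tested genes had both Dox libraries below. Together the 10 genes took 0.541% and 0.563% of all expected counts in the Dox libraries, and 0.319% and 0.319% in the DMSO libraries.

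**Figure D1:**
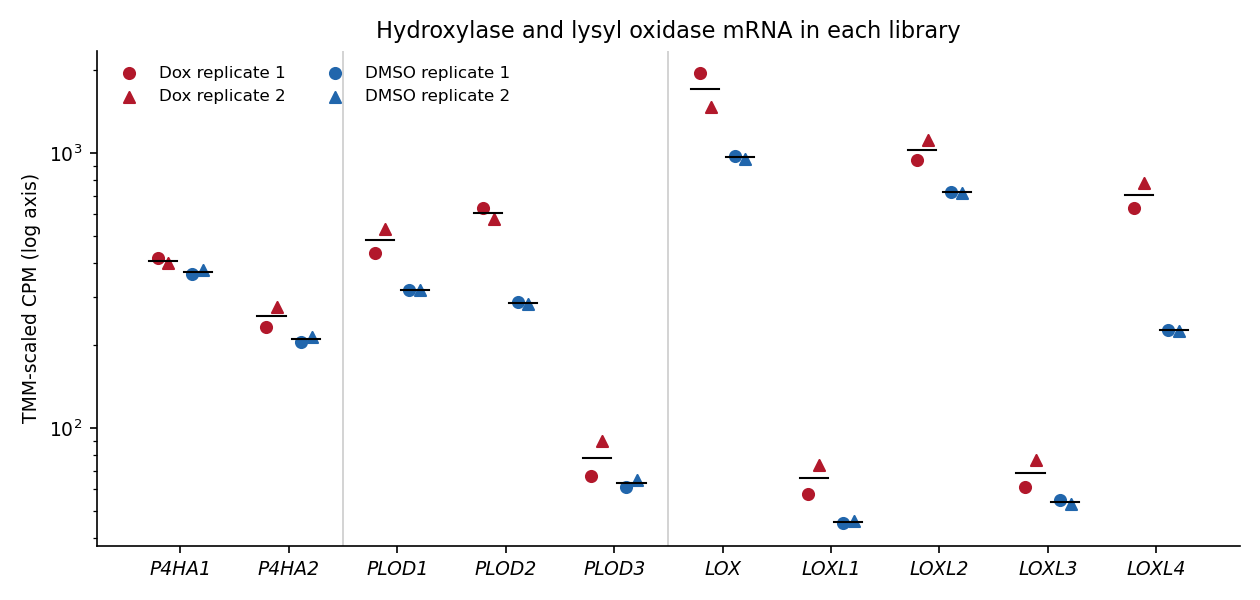
TMM-scaled CPM (log axis) of the 10 genes in each library, in the order prolyl 4-hydroxylases, lysyl hydroxylases and lysyl oxidases. Circles and triangles are replicates 1 and 2 (red Dox, blue DMSO), black lines are means of 2 libraries, and every red pair lies above its blue pair.

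Totals were 42744724 to 47798919 counts a library, and each of these genes had at least 1884 counts in every library. Whether the replicates came from separate cultures is not in the labels. The p-values therefore rest on the spread of these libraries, and that spread may be technical. In such bulk RNA, fewer cells of a type and less RNA per cell cannot be told apart. The Dox libraries stood further from each other than the DMSO libraries did, with a chi-square per degree of freedom of 60.5 against 2.4. Their log2 ratio followed the GC content of transcripts over 16729 genes (Spearman rho 0.63 for Dox replicate 2 over 1, and -0.03 for DMSO replicate 1 over 2), as a description, since genes are not independent. Fibroblast markers were abundant (22612 and 27688 summed CPM in Dox, 30211 and 29803 in DMSO, 11 genes, 5 higher and 3 lower). KRT1 and KRT5 of keratinocytes and CD3E of T cells were at 0 in every library, and the 6 endothelial markers summed to 3.6 and 4.1 CPM in Dox and 4.0 and 4.8 CPM in DMSO. The 6 immune markers summed to 26.4 and 28.6 CPM in Dox and 6.5 and 6.2 CPM in DMSO, of which 3 were tested and 2, CD68 and PTPRC, were higher. Keratinocyte markers (8 genes) summed to 242 and 263 CPM in Dox and 262 and 262 CPM in DMSO, and melanocyte markers (6 genes) to 33.9 and 30.6 CPM in Dox and 29.04 and 30.2 CPM in DMSO. The part of these levels in the results was not tested.

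The prolyl 4-hydroxylase alpha subunits had the smallest fold changes of the 10 genes, and neither passed the test. P4HA1, the main form in most cells (chromosome 10, 73007217 to 73096974, GENCODE 29 on GRCh38, minus strand), had 416 and 399 TMM-scaled CPM in Dox, against 364 and 375 CPM in DMSO. P4HA2, its alternative (chromosome 5, 132191838 to 132295315, minus strand), had 234 and 276 CPM in Dox, against 207 and 214 CPM in DMSO. Both genes were higher in every Dox library. The Dox libraries stood 0.17 and 0.11 in log2 above the DMSO mean for P4HA1, with a gap of 0.06 between them, and 0.15 and 0.39 above it for P4HA2, with a gap of 0.24. The log2 fold change was 0.14 (SE 0.07, edgeR adjusted p = 0.187) for P4HA1 and 0.28 (SE 0.10, edgeR adjusted p = 0.0763) for P4HA2, and neither passed. P4HA1 passed only where Dox replicate 1 (edgeR adjusted p = 0.0106) or Dox replicate 2 (edgeR adjusted p = 3.8e-06) was left out, when the spread came from the DMSO libraries alone. With all 4 libraries P4HA2 passed by DESeq2 (adjusted p = 0.0416) and with per-library GC trends removed (edgeR adjusted p = 0.0162, or 0.0121 with the replicate block added). P4HA2 also passed without Dox replicate 1 (edgeR adjusted p = 1.18e-25) and without Dox replicate 2 (edgeR adjusted p = 7.62e-05). The 2 subunits summed to 649.7 and 675 CPM in Dox, against 570.4 and 588 CPM in DMSO.

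Among the lysyl hydroxylases, PLOD2 and PLOD1 rose and PLOD3 did not pass. PLOD2, the telopeptide hydroxylase (chromosome 3, 146069440 to 146163653, minus strand), had 632 and 575 CPM in Dox, against 287 and 283 CPM in DMSO. The DMSO libraries differed by 0.02 in log2 and the Dox libraries by 0.14, and both Dox values were far above DMSO. The log2 fold change was 1.08 (SE 0.08, edgeR adjusted p = 0.000381), rank 282 of all tested genes by p. PLOD1, which acts mainly on the helical part of the chain (chromosome 1, 11934205 to 11975538, plus strand), had 435 and 529.6 CPM in Dox, against 318 and 318 CPM in DMSO. The Dox libraries differed from each other by 0.28 in log2, less than the lower of them stood above DMSO (0.45). PLOD1 rose by 0.60 on the log2 scale (SE 0.11, edgeR adjusted p = 0.00822) and missed the threshold without DMSO replicate 2 (edgeR adjusted p = 0.0504). PLOD3, which also adds sugars to hydroxylysine (chromosome 7, 101205977 to 101218420, minus strand), had 66.9 and 89.5 CPM in Dox, against 61.4 and 64.6 CPM in DMSO. Most of its difference sat in Dox replicate 2. The log2 fold change was 0.31 (SE 0.14, edgeR adjusted p = 0.138), 0.49 without Dox replicate 1 and 0.08 without Dox replicate 2. With all 4 libraries PLOD3 passed with GC trends removed (edgeR adjusted p = 0.00621) but not by DESeq2 (adjusted p = 0.0785), and it stayed uncalled in 10 of 15 alternatives. In sum the lysyl hydroxylases had 1134 and 1194 CPM in Dox, against 666 and 666 CPM in DMSO.

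Among the lysyl oxidases, LOXL4, LOX, LOXL1 and LOXL2 rose and LOXL3 did not pass. LOXL4, a member with scavenger receptor domains (chromosome 10, 98247690 to 98268250, minus strand), had 629.9 and 776 CPM in Dox, against 228 and 226 CPM in DMSO. The Dox values lay 1.47 and 1.77 in log2 above the DMSO mean, and the groups were far apart. Its log2 fold change of 1.63 (SE 0.11, edgeR adjusted p = 0.000302) was the largest of the 10 and higher than that of 96.7% of tested genes. LOX, the founding member (chromosome 5, 122063195 to 122078360, minus strand), had 1954 and 1477 CPM in Dox, against 981 and 956 CPM in DMSO. Dox replicate 1 held the higher value and the groups did not overlap. LOX rose by 0.82 on the log2 scale (SE 0.13, edgeR adjusted p = 0.00586), by 1.01 without Dox replicate 2 and by 0.60 without Dox replicate 1. LOXL1, linked to elastic fibres (chromosome 15, 73925989 to 73952137, plus strand), had 57.7 and 73.6 CPM in Dox, against 45.1 and 46.1 CPM in DMSO. LOXL2, which also crosslinks collagen IV of basement membranes (chromosome 8, 23297189 to 23425328, minus strand), had 941 and 1119 CPM in Dox, against 725 and 719.6 CPM in DMSO. Both genes were higher in Dox replicate 2 than in Dox replicate 1. For LOXL1 the Dox libraries differed by 0.35 in log2, more than the lower of them stood above the DMSO mean (0.34). For LOXL2 they differed by 0.25, and the lower stood 0.38 above the DMSO mean. The log2 fold changes were 0.52 (SE 0.12, edgeR adjusted p = 0.0206) for LOXL1 and 0.51 (SE 0.10, edgeR adjusted p = 0.0107) for LOXL2. LOXL1 did not pass without DMSO replicate 1 (edgeR adjusted p = 0.0916) or DMSO replicate 2 (edgeR adjusted p = 0.0769), nor did LOXL2 (edgeR adjusted p = 0.0662 and 0.0789). LOXL3, known in mice for its part in palate development (chromosome 2, 74532414 to 74555690, minus strand), had 60.9 and 76.6 CPM in Dox, against 54.6 and 53.2 CPM in DMSO, a log2 fold change of 0.35 (SE 0.12) that missed the threshold (edgeR adjusted p = 0.0638). It passed without Dox replicate 1 (edgeR adjusted p = 2.09e-28) or Dox replicate 2 (edgeR adjusted p = 0.000528). The 5 lysyl oxidases summed to 3643 and 3523 CPM in Dox, against 2033 and 2001 CPM in DMSO.

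**Figure D2:**
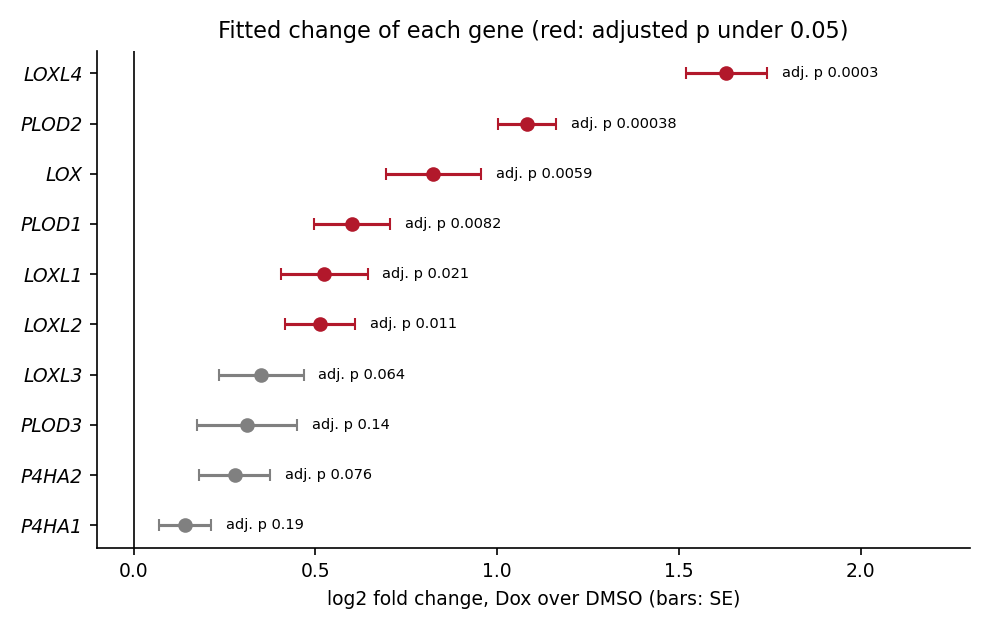
Fitted log2 fold change of each gene, Dox over DMSO, with its standard error as a bar and its edgeR adjusted p beside it. The 6 genes in red passed at 0.05, from LOXL2 (0.51) to LOXL4 (1.63), and the 4 in grey lie between 0.14 and 0.35.

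How firmly the 10 genes were called depended on the library left out. Without DMSO replicate 1 or 2, 4 or 3 of them were higher, among 1517 or 1368 higher genes in all. Without Dox replicate 1 or 2, 10 or 9 of them were higher, among 4505 or 4654 higher genes in all, and none of the 10 was lower in any of these 4 edgeR fits. With a lone library in a group, that library is assumed to vary like the other group. LOXL4, PLOD2 and LOX were called in all 4 of these fits. LOXL4 was also called by limma on log2(TPM + 1), where 1 of the 10 genes passed (adjusted p = 0.00386), and LOXL4 and PLOD2 by edgeR's glmTreat at a 1.5-fold threshold (adjusted p = 0.00106 and 0.00336).

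The gap between the Dox libraries split the 10 genes by base composition. PLOD2, P4HA1 and LOX, with 36.1 to 42.4% GC in their transcripts, were higher in Dox replicate 1, and the other 7, with 50.9 to 63.8% GC, were higher in Dox replicate 2. Over the 10 genes the log2 ratio of Dox replicate 2 to 1 followed GC content (Spearman rho 0.83, n = 10 genes from the same 2 libraries, a description only). It ran from -0.40 for LOX to 0.42 for PLOD3, whereas the DMSO libraries differed by at most 0.07 in log2 for any of the 10. The fold change of Dox over DMSO did not follow GC content (rho -0.04, n = 10 genes). When smooth GC trends were removed per library, 9 of 10 genes were higher, among 3928 higher genes of 16729 tested. P4HA1 did not pass (edgeR adjusted p = 0.156). The log2 fold changes in that fit were 0.83 for LOX, 0.97 for PLOD2 and 1.63 for LOXL4.

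**Figure D3:**
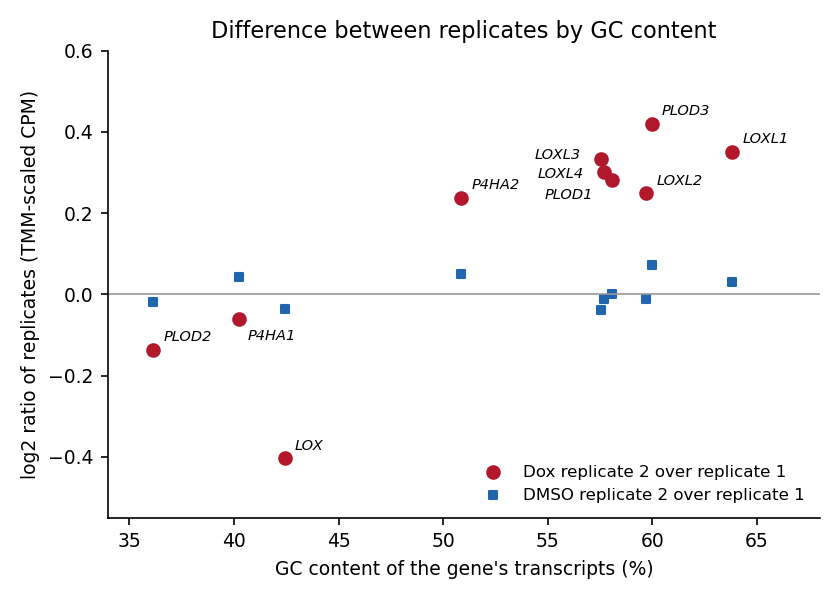
Log2 ratio of replicate 2 over replicate 1 in TMM-scaled CPM against the GC content of each gene's transcripts, for the 10 genes in Dox (red circles) and DMSO (blue squares). Red points run from -0.40 (LOX) to 0.42 (PLOD3), while blue points stay within 0.07 of 0.

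Levels of different genes were compared per length, as TMM-scaled CPM per kilobase of effective length. LOX was the most abundant of the 10 in both groups, at 643 and 434 in Dox and 256 and 251 in DMSO. LOXL2 came second, at 297 and 359 in Dox and 229.6 and 226 in DMSO. In Dox, LOXL4 came next (185 and 228), and it overlapped PLOD1 (192 and 214), which overlapped PLOD2 (206 and 170.4). P4HA1 (167 and 159), P4HA2 (114 and 136), LOXL1 (70.7 and 82.9), PLOD3 (35.8 and 46.5) and LOXL3 (23.2 and 28.8) followed in Dox without overlap between neighbours. In DMSO, the order after LOXL2 was P4HA1 (146 and 149), PLOD1 (134 and 134), P4HA2 (98.0 and 102), PLOD2 (89.4 and 89.1), LOXL4 (66.9 and 66.4), LOXL1 (59.1 and 58.2), PLOD3 (32.7 and 35.6) and LOXL3 (18.5 and 19.1). No neighbours overlapped in DMSO. The place of LOXL1 rests on its short effective length, 816 and 888 bases in Dox and 764 and 793 bases in DMSO. In TMM-scaled CPM, without division by length, LOXL1 was the lowest of the 10 in every library. By group mean LOXL4 was rank 3 in Dox and rank 7 in DMSO, and P4HA1 rank 6 in Dox and rank 3 in DMSO. In Dox replicate 1 alone, LOXL4 lay below both PLOD2 and PLOD1. The deposited TPM gave the same ranks by group mean, but its scale differed between the Dox libraries, and there LOXL2 (73.25 and 142 TPM) overlapped LOXL4 (45.7 and 90.4 TPM).

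The make-up of each family was read as the share of each gene in its family's summed TPM, which cancels the scale of a library. PLOD2 held 47.4% and 39.5% of lysyl hydroxylase TPM in Dox, against 34.9% and 34.4% in DMSO, while PLOD1 held 44.3% and 49.7% in Dox, against 52.4% and 51.8% in DMSO. PLOD3 held 8.25% and 10.8% in Dox, against 12.8% and 13.8% in DMSO. LOXL4 held 15.2% and 20.1% of lysyl oxidase TPM in Dox, against 10.6% and 10.7% in DMSO. LOXL2 held 24.4% and 31.7% in Dox, against 36.4% and 36.4% in DMSO, although its own level was higher in Dox. The share of LOX was 52.7% and 38.3% in Dox, on either side of the 40.7% and 40.5% in DMSO. P4HA1 held 59.3% and 54.0% of prolyl 4-hydroxylase TPM in Dox, against 59.8% and 59.2% in DMSO. With 2 libraries against 2, an exact permutation test cannot go below 0.33 (two-sided), and no other test of these shares was run.

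**Figure D4:**
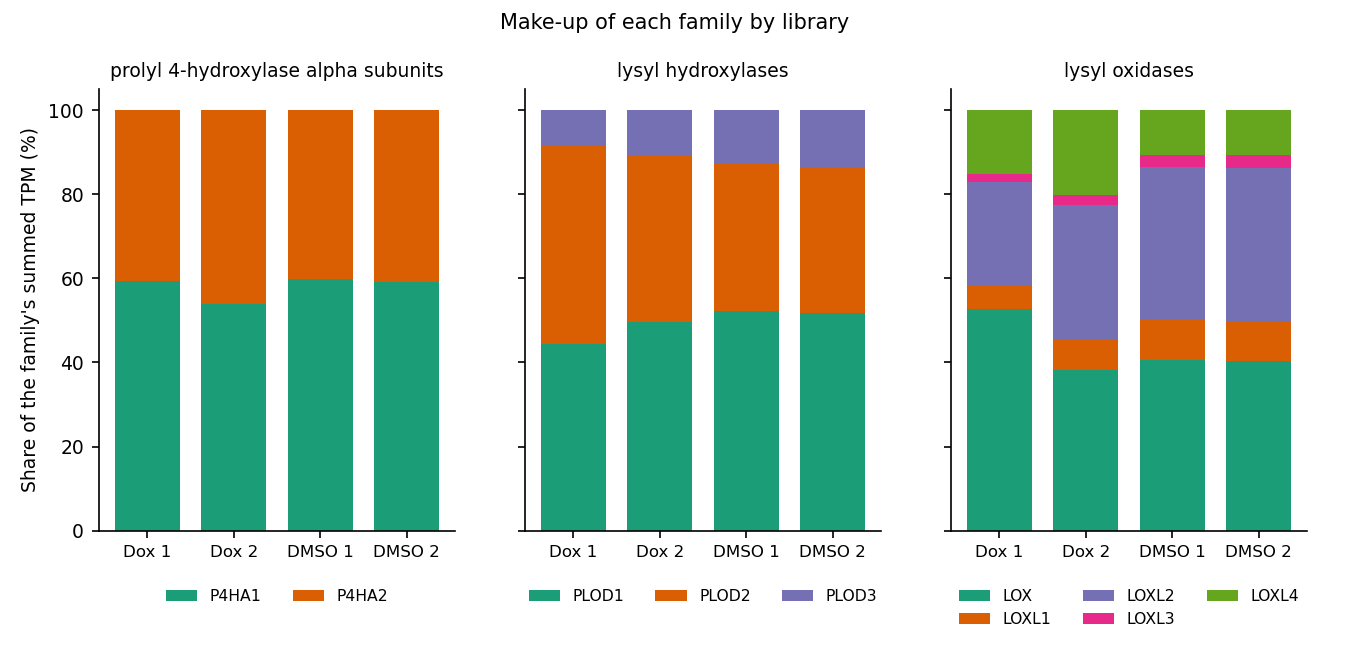
Share of each gene in its family's summed TPM (%), stacked per library, for the prolyl 4-hydroxylase alpha subunits, lysyl hydroxylases and lysyl oxidases. PLOD2 and LOXL4 take larger shares in both Dox libraries than in either DMSO library, and the LOX share in Dox lies on both sides of DMSO.

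The ratios of LOXL4 (57.7% GC) to LOXL2 (59.7%) and to LOXL1 (63.8%) varied little between the Dox libraries. This did not hold for all genes of like GC content. LOX (42.4% GC) and P4HA1 (40.2%) had log2 CPM ratios of Dox replicate 2 to 1 of -0.40 and -0.06. LOXL4 over LOXL2, per length, was 0.624 and 0.635 in Dox, against 0.291 and 0.294 in DMSO, a 2.15-fold difference of the means. LOXL4 over LOXL1, which rests on the short effective length given to LOXL1, was 2.62 and 2.75 in Dox, against 1.13 and 1.14 in DMSO. PLOD2 over PLOD1, whose GC contents are 36.1% and 58.1%, was 1.07 and 0.795 in Dox, against 0.666 and 0.665 in DMSO. LOX over LOXL2 was 2.16 and 1.21 in Dox, against 1.12 and 1.11 in DMSO.

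RSEM gives each gene a length averaged over its transcripts by their estimated abundance, so that this column carries a readout of transcript mix. For LOX it was 3238 and 3601 bases in Dox, against 4019 and 4000.4 bases in DMSO, 14.7% shorter on average. The annotated LOX transcripts run from 561 to 5102 bases in GENCODE 29. A fall at least this large relative to length was seen in 4.18% of the 13586 tested genes whose length varied. LOXL3 was also shorter, at 2822 and 2858 bases in Dox, against 3146 and 2975 bases in DMSO, as was P4HA2, at 2246 and 2227 bases in Dox, against 2299 and 2277 bases in DMSO. LOXL1 was longer, at 1013 and 1081 bases in Dox, against 955 and 982 bases in DMSO, and so was PLOD3, at 2068 and 2119 bases in Dox, against 2067 and 2003 bases in DMSO, though its effective lengths overlapped. Both Dox libraries were shorter than both DMSO libraries for 3 of the 9 genes with several transcripts, against 21.2% of tested genes, and longer for 2 of 9, against 16.6%. The LOXL1 lengths lie well under the 2351 bases of LOXL1-201, its protein-coding transcript. LOX rose 1.77-fold in counts and 2.12-fold per length, the mean effective length being shorter in Dox. No transcript levels were analysed here, and with 2 libraries a group no test of these lengths was run.

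The promoters of the 3 genes that rose most are shown to set their base composition side by side and to mark the core of the hypoxia response element, since P4HA1, P4HA2, PLOD2 and LOX are known targets of the hypoxia-inducible factors. Sequences are from RefSeq (GRCh38.p14), all on the minus strand and 5′ to 3′, and cover the longest stretch that GENCODE 29 lists in no exon within the 250 bases before a RefSeq start site (the most upstream of that table's entries for the gene). The GENCODE 29 span of each of these 3 genes reaches further upstream than this site, and the whole PLOD2 window lies inside the PLOD2 span. Capitals mark ACGTG or GCGTG and, for the other strand, CACGT or CACGC.
LOXL4 (chr10:98268251-98268444): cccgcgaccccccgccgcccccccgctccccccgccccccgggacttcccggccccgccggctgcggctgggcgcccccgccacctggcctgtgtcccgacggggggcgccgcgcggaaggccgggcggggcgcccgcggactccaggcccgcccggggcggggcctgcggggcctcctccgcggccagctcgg
PLOD2 (chr3:146161185-146161434): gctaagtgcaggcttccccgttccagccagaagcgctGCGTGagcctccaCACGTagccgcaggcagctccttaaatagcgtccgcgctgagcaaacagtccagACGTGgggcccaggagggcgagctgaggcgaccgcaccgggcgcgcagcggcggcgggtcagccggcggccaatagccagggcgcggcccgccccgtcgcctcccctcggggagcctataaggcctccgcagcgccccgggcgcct
LOX (chr5:122078361-122078509): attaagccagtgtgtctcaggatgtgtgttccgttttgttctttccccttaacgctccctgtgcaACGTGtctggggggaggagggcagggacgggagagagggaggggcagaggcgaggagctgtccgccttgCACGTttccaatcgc
Over the whole 250 bases, GC content was 86.4% for LOXL4, 72.4% for PLOD2 and 55.2% for LOX. The core was found 4 times in LOX (2 of them in the stretch printed), 3 times in PLOD2, 2 times in PLOD1 and 1 time in P4HA1, on either strand, and was not among the letters of the windows of P4HA2, PLOD3, LOXL1, LOXL3 and LOXL4. The windows of P4HA2, PLOD3 and LOXL1 lie wholly in GENCODE 29 exons, as do 126 of the 250 bases of LOXL3, 108 of P4HA1, 101 of LOX, 56 of LOXL4 and 23 of PLOD1. Windows were matched for 9 of the 10 genes, all but LOXL2. Of 27305 genes with such a window, 43.1% held the core at least 1 time and 7.84% at least 3 times. A palindromic CACGTG counts on both strands, and a match describes letters and no binding.

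Of 21 tested partners of these enzymes in the endoplasmic reticulum, 6 were higher, 2 were lower and 13 were not called. The log2 fold changes of these 21 had a median of 0.20. For comparison, 16.5% of all tested genes were higher and 13.8% were lower. P4HB, the beta subunit of prolyl 4-hydroxylase, had 757 and 989 CPM in Dox, against 529.4 and 551 CPM in DMSO, and rose by 0.69 (SE 0.13, edgeR adjusted p = 0.0101). FKBP10, a prolyl isomerase that works with PLOD2, had 415 and 541 CPM in Dox, against 298 and 300.1 CPM in DMSO, and rose by 0.68 (SE 0.13). CRTAP, of the prolyl 3-hydroxylase complex, rose by 0.49, while P3H1 (-0.22) and PPIB (0.30), its other subunits, did not pass. P3H2, a prolyl 3-hydroxylase, had 24.9 and 27.7 CPM in Dox, against 7.19 and 7.36 CPM in DMSO, and rose by 1.85 (SE 0.10), and CREB3L1, a transcription factor of collagen secretion, rose by 1.07 (SE 0.08). SERPINH1, the collagen chaperone HSP47, went the other way, with 414 and 537 CPM in Dox, against 953 and 948 CPM in DMSO, and fell by 1.00 (SE 0.13, edgeR adjusted p = 0.00257). SPARC, a collagen-binding matricellular protein, fell by 0.58 (SE 0.06). COLGALT1, which glycosylates hydroxylysine (-0.03), and P4HA3, a further alpha subunit (-0.36), did not pass.

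Of 11 tested substrates, 5 fell, 1 rose and 5 did not pass (median -0.37), beside 13.8% lower and 16.5% higher of all tested genes. ELN, elastin, had 94.5 and 126 CPM in Dox, against 646 and 622 CPM in DMSO, and fell by 2.52 (SE 0.14, edgeR adjusted p = 0.000158). COL11A1, a minor fibrillar collagen, fell by 1.49 (SE 0.07) and COL3A1 fell by 0.56 (SE 0.12), and the 1 that rose was COL24A1 (0.87). COL1A1 (-0.36, edgeR adjusted p = 0.0666) and COL1A2 (-0.37, edgeR adjusted p = 0.0517), the chains of type I collagen, narrowly missed the threshold. They hold most of the substrate sum, so the ratios to substrate counts rest largely on them. Substrate CPM summed to 18920.2 and 24223 in Dox, against 29796 and 29279 in DMSO. For each 1000 substrate counts there were 193 and 145 lysyl oxidase counts in Dox, against 68.2 and 68.4 in DMSO. For lysyl hydroxylases there were 60.0 and 49.3 in Dox, against 22.4 and 22.7 in DMSO, and for prolyl 4-hydroxylases 34.3 and 27.8 in Dox, against 19.1 and 20.1 in DMSO. Between the means the ratios were 2.47, 2.42 and 1.58, and over the leave-one-out fits that for lysyl oxidases ran from 2.13 to 2.82. The lower substrate sum in Dox replicate 1 goes with its lower levels of COL1A1 (4814 CPM, against 6256 CPM in Dox replicate 2) and COL1A2 (10486 CPM, against 13349 CPM).

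**Figure D5:**
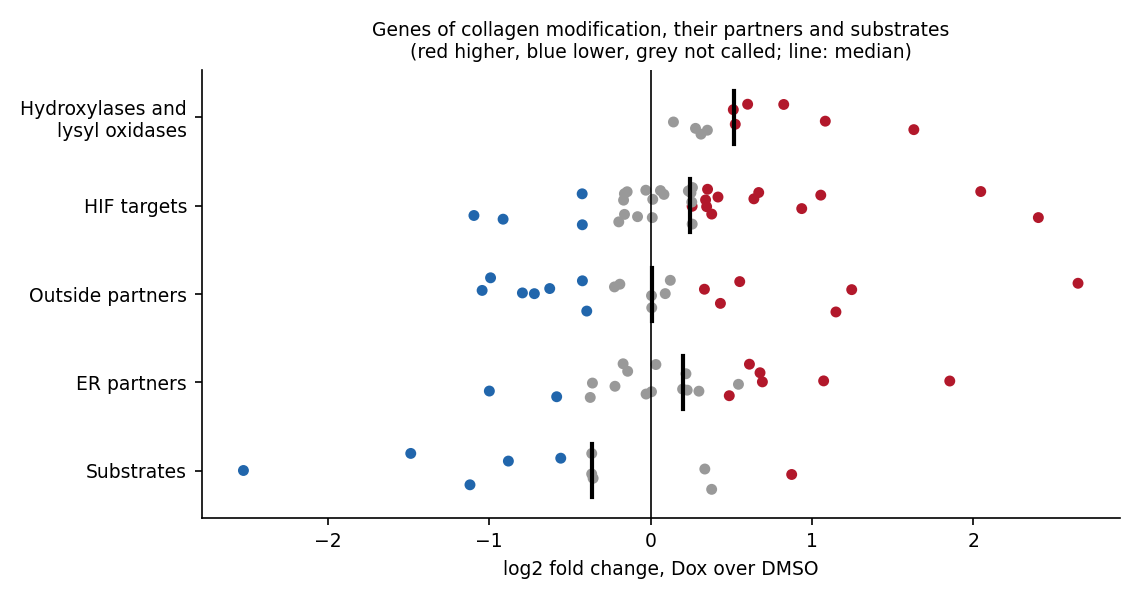
Log2 fold change, Dox over DMSO, of the tested genes in 5 lists, 1 point a gene (red higher and blue lower at an edgeR adjusted p under 0.05, grey not called), with black lines at the medians. The median is 0.52 for hydroxylases and lysyl oxidases, 0.24 for HIF targets and 0.01 for outside partners (with genes of copper supply). It is 0.20 for partners in the endoplasmic reticulum (ER) and -0.37 for substrates.

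Partners outside the cell, a list that also holds genes of copper supply, had 6 of 19 tested genes higher, 7 lower and 6 not passing (median log2 fold change 0.01). Over all tested genes the shares were 16.5% higher and 13.8% lower. Single genes are in log2 here too. FBLN1, a matrix glycoprotein, rose by 1.25 (SE 0.07) and TLL1, a procollagen C-proteinase, by 2.65 (SE 0.22) from a low level (2.43 and 2.69 CPM in Dox, against 0.407 and 0.405 CPM in DMSO). BMP1, the main C-proteinase, which also releases active LOX from its propeptide, had 58.9 and 77.0 CPM in Dox, against 78.5 and 76.6 CPM in DMSO (-0.19, SE 0.13) and did not pass. ADAMTS2 and ADAMTS3, both procollagen N-proteinases, fell by 0.99 (SE 0.12) and fell by 0.72 (SE 0.10). POSTN, which brings BMP1 to the matrix, fell by 0.63 and FBLN5, which binds LOXL1 to elastic fibres, fell by 0.42. EFEMP2, which binds LOX to elastin (0.01), and ATP7A, the copper pump that supplies lysyl oxidases (0.09), did not pass.

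Targets of the hypoxia-inducible factors other than these enzymes were higher in 12 of 32 cases, lower in 4 and not called in 16 (median log2 fold change 0.24). Both this count and that for HIF and cofactor genes below stand beside 16.5% higher and 13.8% lower of all tested genes. CA12, a carbonic anhydrase, rose by 2.40 (SE 0.13) and ADM, the peptide hormone adrenomedullin, by 0.94 (SE 0.09), while ANKRD37 fell by 1.09 (SE 0.14) and EGLN3, a HIF prolyl hydroxylase, fell by 0.91 (SE 0.17). Of 15 tested genes for HIF subunits and for the iron and 2-oxoglutarate supply of the hydroxylases, 4 rose, 3 fell and 8 did not pass. HIF1A had 393 and 350.5 CPM in Dox, against 546 and 537 CPM in DMSO, and fell by 0.54 (SE 0.08), whereas EPAS1, which encodes HIF-2 alpha, rose by 0.44 (SE 0.07). FTH1, the ferritin heavy chain that stores iron, rose by 1.37 (SE 0.08), and IDH1, an enzyme that makes 2-oxoglutarate, fell by 0.53 (SE 0.08).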

How the data were processed

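RNA of 2 Dox and 2 DMSO libraries was compared, grouped by title. The series design places the 24 hours of exposure before the 10 days, and the wording of the treatment protocol differs on this order. Cutadapt, STAR, Picard, RSEM and build hg38 stand in the submitters' processing notes; their versions, the annotation release and the strand setting of counting are not given in the sources used. The deposited expected counts are, per the file headers, estimated reads per gene and were rounded to whole numbers. The deposited TPM values are per length and per library total, per the file headers; small RNA genes held 79.7 to 86.6% of TPM, which moves the TPM of all other genes. The order of levels was planned in TPM and is therefore given as TMM-scaled CPM per kilobase, a change made after seeing the data. The deposited FPKM values, per the file headers, served only to set the TPM scale against it, and the authors' length columns (other values) are in bases. Genes were filtered with filterByExpr (minimum 10, total 15), scaled by TMM and fitted with edgeR's quasi-likelihood test with group as the only term. The SE is the log2 fold change over the root of F. The fit used edgeR 4.0.16 in R 4.3.3 and was tested on simulated data. Alternatives used DESeq2 1.42.0 and limma 3.58.1, and Python 3.11.15 did the joins. Of the gene IDs, 80.6% carried the same version as GENCODE 29 and others were matched without version; GC content is over a gene's transcripts. Alternatives were other scalings, no filter, DESeq2, limma on log2 TPM, a fold threshold, GC-trend offsets (lowess span 0.3), a replicate block, protein-coding genes and leaving out each library. The members and lists were chosen with earlier results of these data known. Beside the members, genes named were fixed partners and substrates and the 2 of smallest p per list and direction; marker genes and those given for their counts were named after values were seen. Nothing in the labels says whether replicate numbers pair the samples. The correlation of deviations (0.04) cannot decide it, since the Dox libraries differed far more than the DMSO libraries. No column of another sample was used.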

Additional observations from a re-analysis of the deposited data

How the results depend on the processing

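The direction of all 10 genes was the same under all 15 alternatives, and LOXL4 was called under each. The number of the 10 called higher was 1 with limma on log2(TPM + 1), 1 with limma on log2(TPM + 0.1) and 2 with glmTreat at 1.5-fold, ran from 3 to 10 over the fits that left out a library, and was 6 to 9 under the others; none was called lower. With limma on log2(TPM + 1), log2(TPM + 0.1) and glmTreat in turn, 596, 637 and 787 of all tested genes were higher and 198, 198 and 480 lower. GC-trend offsets gave 3928 higher and 3868 lower genes, and together with the replicate block 3837 higher and 3819 lower, with 9 of the 10 genes higher in both fits. Leaving out a library gave 1368 to 4654 higher and 1000 to 5017 lower genes. The replicate block alone gave 8 of the 10 genes (LOXL3 and PLOD3 added) and 2972 higher and 2511 lower genes in all. Whether the replicate numbers pair the samples is not known. Without a filter and on log2(TPM + 0.1) the median of all genes moved to 0.12 and 0.13. Over the alternatives, 1 to 11 partners in the endoplasmic reticulum were higher and 0 to 8 lower, 2 to 7 and 0 to 10 partners outside the cell, 0 to 3 and 1 to 8 substrates, 2 to 17 and 0 to 9 HIF targets, and 1 to 6 and 0 to 6 HIF and cofactor genes. Family shares per length from TMM-scaled CPM were nearly those from TPM, since a share cancels the scale. Leaving out a library, the LOX share (Dox minus DMSO) ran from -2.27 to 12.2 percentage points and so changed sign. PLOD2 ran from 4.85 to 12.8, LOXL4 from 4.55 to 9.48 and P4HA1 from -5.56 to -0.20. Leaving out 1 of 2 libraries cannot move a mean by more than the gap between them, so that gap is no yardstick here. The cause of these moves was not tested, except that a fit with fewer libraries estimates spread from fewer. The ratios to substrate counts were left-out-library checks added after seeing the data.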

Other observations

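The tested genes whose profile over the 4 libraries lay nearest to that of LOXL4, the gene of the 10 with the smallest adjusted p, were DIRC3, RHBDF2 and CLIC6, at distances of 0.05, 0.06 and 0.09 (Euclidean, on centred log2 CPM), and 34 genes lay within 0.2. RHBDF2 had 9.89 and 12.0 CPM in Dox, against 3.50 and 3.33 CPM in DMSO. With 4 libraries such likeness is a description only.

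Several of the 10 genes share exonic bases with a gene on the other strand, and reads of such partners cannot be told apart without a strand setting. LOXL1 shares 335 bases with the antisense gene LOXL1-AS1, which had 245 and 256 expected counts in Dox, against 185 and 206 in DMSO. LOX shares 138 bases with SRFBP1, which had 595 and 603 expected counts in Dox, against 525 and 561 in DMSO. LOXL3 shares 625 bases with HTRA2, which had 351 and 472 expected counts in Dox, against 437 and 507 in DMSO. PLOD3 shares 429 bases with ZNHIT1, which had 1299 and 1798 expected counts in Dox, against 1413 and 1641 in DMSO. LOXL2 shares 120 bases with ENTPD4 on its own strand, and its counts exceed those of ENTPD4 in every library.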
